A study of Mus musculus with 93 samples.

Results

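The genes described here encode the ligands and receptors of axon guidance: semaphorins with their plexin and neuropilin receptors, ephrins with their Eph receptors, Slits with their Robo receptors, and netrins. Members were chosen by gene symbol, with earlier results of these data known. This gave 64 of the 33924 genes in the count tables. They are 35 ligands (20 semaphorins, 8 ephrins, 3 Slits and 4 netrins) and 29 receptors (9 plexins, 2 neuropilins, 9 EphA, 5 EphB and 4 Robo genes). The RNA-seq libraries come from R1, a line of mouse embryonic stem (ES) cells, cultured with serum and leukaemia inhibitory factor, which keeps such cells undifferentiated. The 12 libraries form 4 groups of 3. The first set holds wild type cells and cells with the genotype Ring1b I53A, a point mutation in the Polycomb subunit that places ubiquitin on histone H2A, known to impair that activity. The second set holds its own wild type cells and cells with the genotype label H1b/c/d/e-QKO, which names genes of linker histones, the proteins that bind DNA between nucleosomes. How many clones stand behind a genotype is not stated. The labels do not say whether replicates were separate cultures. The p-values therefore rest on library-to-library spread, which may be technical. The other 81 samples of the series, from other assays, were not analysed here.

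As background, guidance ligands are secreted or held on a cell surface, and the growth cone of an axon is drawn towards or pushed away from them through its receptors. Class 3 semaphorins bind neuropilins, which pass the signal on through plexins, while most membrane-bound semaphorins bind plexins directly. Ephrins and Eph receptors both sit in membranes and signal in both of the touching cells. Outside the nervous system the same families sort cells at tissue boundaries and shape blood vessels, and many of their genes are silent or low in pluripotent cells.

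Depth ranged from 12585621 to 23378930 counts per library, and between 58 and 64 members had at least 1 count in each. The members together took 0.112 to 0.153% of all counts. Rnf2, the gene of Ring1b, had 177 to 192 CPM (counts per 1000000, scaled by TMM within a set) in wild type and 85.7 to 98.0 CPM in I53A, which does not check a point mutation. Of the 4 linker histone genes named by the label, 3 could be tested in the libraries labelled QKO and none was called lower. Over the wild type libraries of that set Hist1h1b had 15 counts, Hist1h1d 27 and Hist1h1e 8, so few that a fall would be hard to see. Hist1h1c had 521 counts there and 505 under the label. Hist1h1b rose from 2 to 9 counts per wild type library to 53 to 72. These libraries are therefore named by their label throughout. On one scale over all 12 libraries, the 12 ES cell markers summed to 6735 to 7084 CPM in wild type and 5839 to 6017 CPM in I53A, and to 7666 to 7785 and 8726 to 8834 CPM in the second set. Of them 1 rose and 4 fell in I53A (18.1% and 17.4% of all genes), and 7 rose and 4 fell under the QKO label (28.7% and 29%). Tdgf1 rose from 142 ± 0.682 to 282 ± 67.7 CPM in I53A, while Sox2 fell from 565 ± 65.2 to 355 ± 33.7 CPM. Under the label Zfp42 rose from 898 ± 15.9 to 1628 ± 44.9 CPM, while Lin28a fell from 195 ± 3.19 to 157 ± 3.01 CPM. The 17 primitive endoderm markers, all called higher in I53A (18.1% of all genes), summed to 1053 to 1121 CPM in wild type and 4767 to 5011 CPM in I53A, and to 1011 to 1087 CPM and 989 to 1019 CPM in the second set. Cubn rose from 1.41 ± 0.538 to 314 ± 10.3 CPM in I53A. The second-set sums are mostly Lamc1, which fell from 620.4 ± 26.3 to 515 ± 12.6 CPM, while 8 of 15 tested primitive endoderm markers rose under the QKO label and 2 fell (28.7% and 29% of all genes). Among those rises were Cubn from 0.771 ± 0.545 to 3.76 ± 0.394 CPM, Srgn from 0.129 ± 0.0943 to 1.26 ± 0.0681 CPM and Pdgfra from 0.994 ± 0.337 to 2.54 ± 0.107 CPM. Neural progenitor markers (9 measured, Pax3 at 0 in the second set) summed to 10.9 to 12.6 CPM in wild type and 28.4 to 31.1 CPM in I53A. The second set had sums of 13.6 to 14.1 CPM and 26.96 to 29.7 CPM. Most of these sums is Nes, which rose from 9.90 ± 0.471 to 28.5 ± 1.72 CPM in I53A and from 10.3 ± 0.702 to 24.7 ± 1.47 CPM under the QKO label. Pax6 fell in both, from 2.02 ± 0.640 to 0.549 ± 0.264 CPM and from 2.43 ± 0.643 to 1.32 ± 0.0908 CPM, and Zic1 rose from 0.0255 ± 0.0441 to 1.31 ± 0.176 CPM in I53A. Dcx, a marker of young neurons, was at 0 in all groups but I53A, which had 6 counts over its libraries, too few to be tested.

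In wild type cells 3 receptors held the highest levels per length. The receptor tyrosine kinase gene Epha2 led with 28.1 ± 1.95 CPM per kilobase of exon in the first set and 34.1 ± 1.03 in the second (mean ± SD, n = 3, scaled over all 12 libraries). Plxna1 followed with 20.2 ± 1.90 and 16.2 ± 0.902, and Plxnb2 with 17.5 ± 0.799 and 20.1 ± 1.49, so that the order of this pair differed between the sets. Among ligands Sema4b was highest in both sets, with 16.1 ± 2.44 and 11.9 ± 0.703. In the first set Ntn1 came next, with 9.91 ± 0.304, and Efna4 after it, with 9.25 ± 0.500, a gap within their spread. At the other end Epha3, an Eph receptor of the nervous system, had no count in any wild type library.

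**Figure D1:**
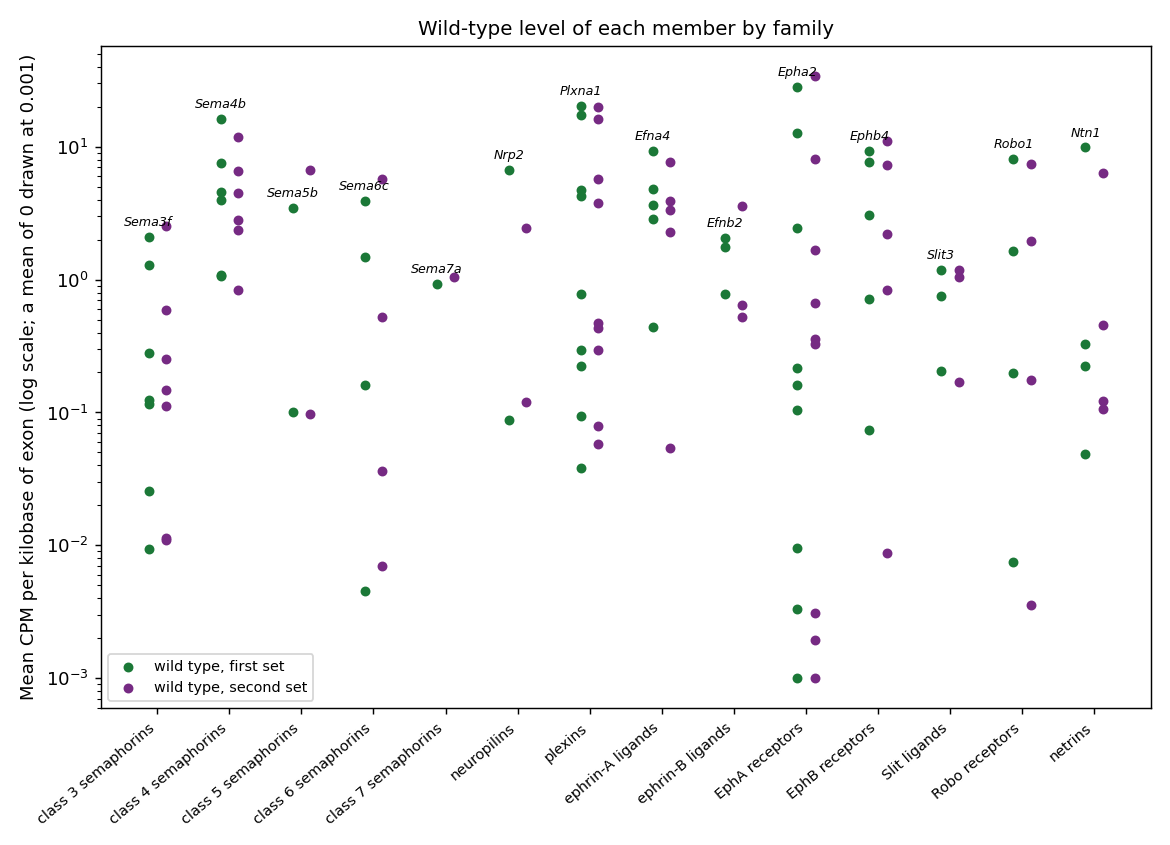
Mean wild type level of every member in CPM per kilobase of exon, on a log axis, by family and for both sets of wild type libraries (3 libraries each). Nearly every family holds members at levels many times apart, with the highest member of the first set named.

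Of the 64 members, 57 could be tested in I53A against wild type, and edgeR's quasi-likelihood test called 29 of them, 19 higher and 10 lower (50.9% called). Over all genes tested the share called was 35.5%, with 18.1% higher and 17.4% lower. Receptors were called in 16 of 26 cases (11 higher, 5 lower) and ligands in 13 of 31 (8 higher, 5 lower). The median log2 fold change of the members tested was 0.29, against -0.001 over all genes. In the libraries labelled QKO 56 members could be tested and 40 were called, 19 higher and 21 lower. That is 71.4%, against 57.7% of all genes (28.7% higher, 29% lower), and the median was -0.07, against -0.003 over all genes. At least 2-fold, 13 members rose and 3 fell in I53A, where 8.41% and 3.61% of all genes did so. Under the QKO label 11 rose and 3 fell at least 2-fold, against 8.58% and 3.34%. The groups did not overlap in 30 of 57 members in I53A (49.4% of all genes) and in 40 of 56 under the label (61.5%). Part of these counts is fixed by the filter on low counts: Epha8, Ephb1, Nrp1, Robo2 and Sema3d, all called higher in I53A, passed it only through the I53A libraries. So did Plxna4 and Sema3c, which were not called. Efna5, Nrp1, Ntn5, Plxnb3, Sema3d, Sema3g and Sema6a likewise passed it only through the libraries labelled QKO. In bulk RNA a lower level may mean fewer cells of a type or less RNA per cell, and these cannot be told apart. The primitive endoderm markers moved by the amounts given above, and their part in the changes of either comparison was not tested.

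**Figure D2:**
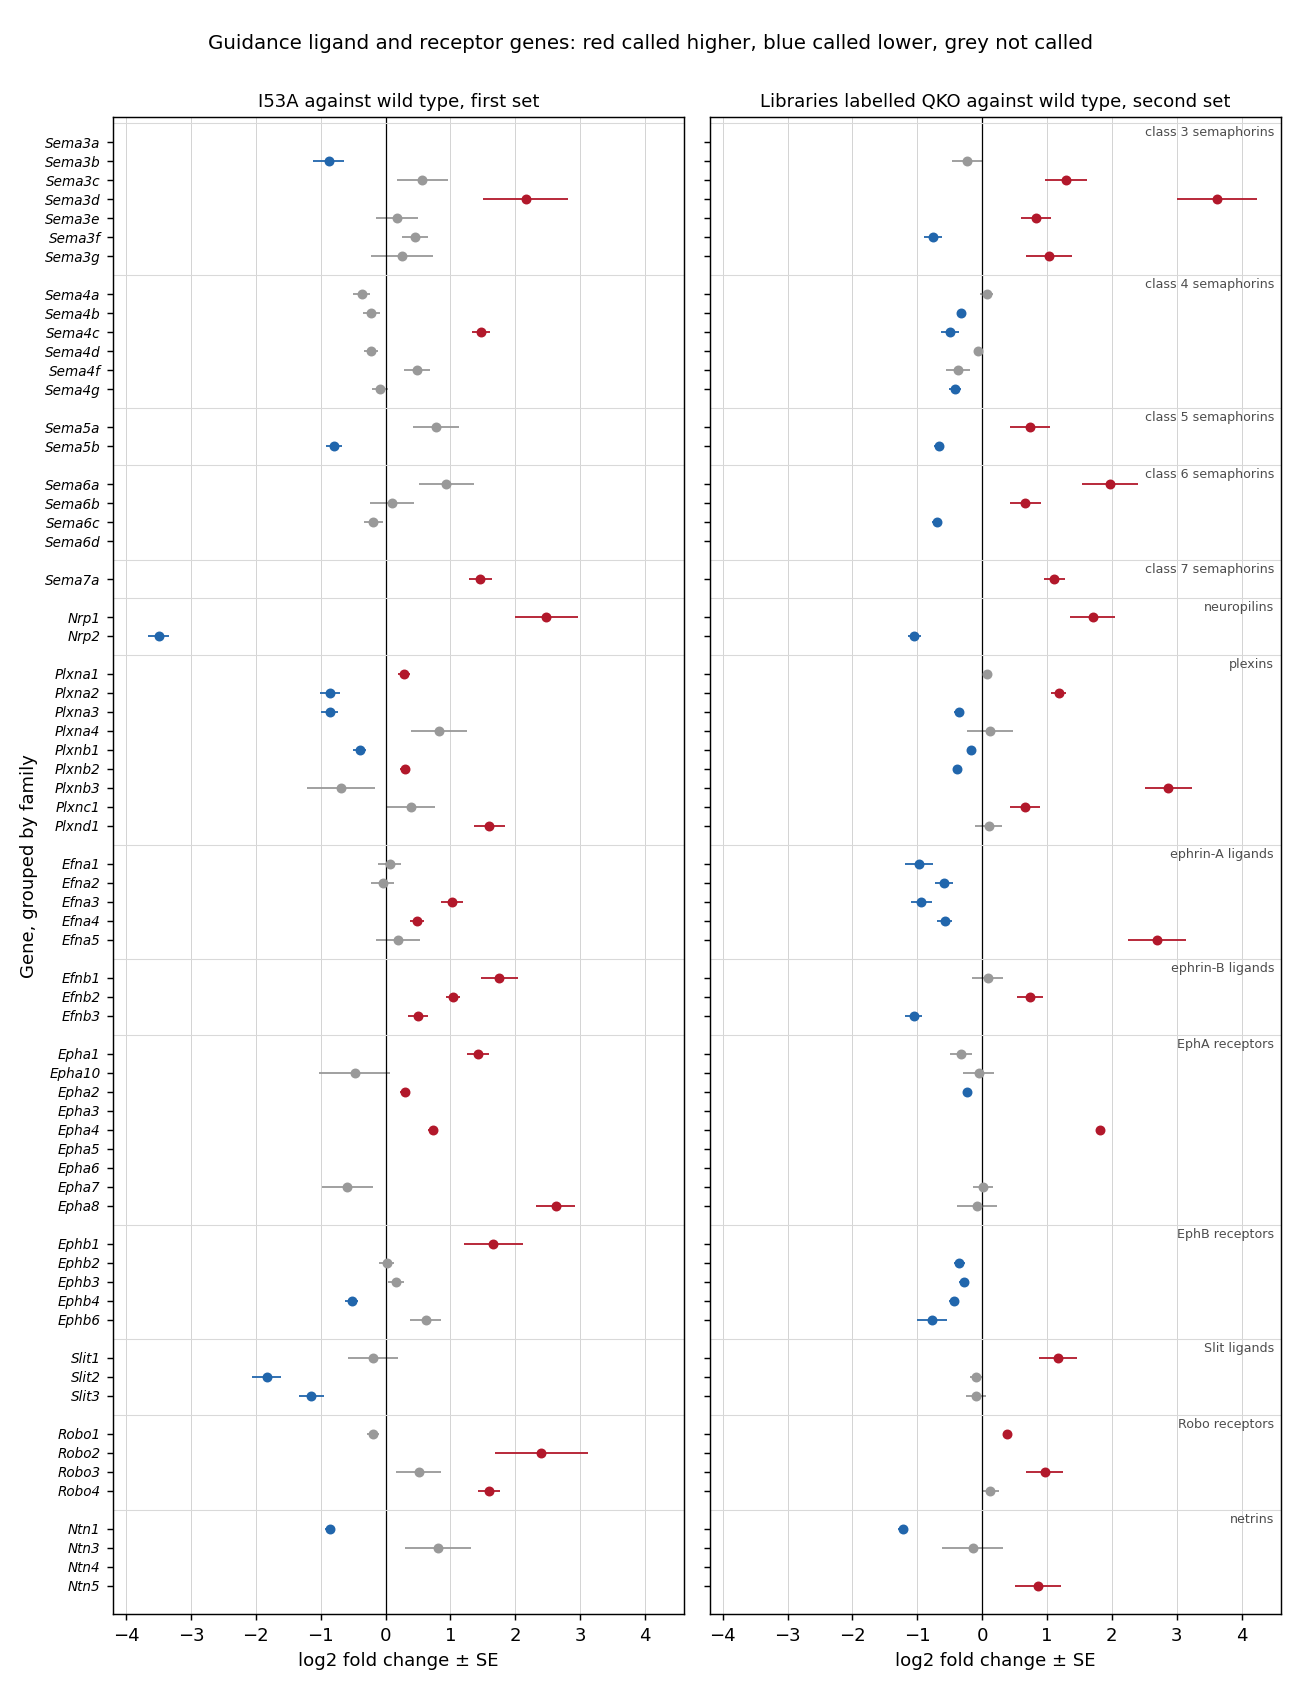
Log2 fold change (point) with its standard error (line) for each tested member, by family, in I53A against wild type (left) and in the libraries labelled QKO against wild type (right), with 3 libraries per group. Red points were called higher and blue points lower (edgeR, adjusted p under 0.05), and members without a point had too few counts to be tested. Nrp2 lies farthest to the left in I53A, and Sema3d farthest to the right under the QKO label.

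Leaving out 1 library moved the I53A count of rises most: without I53A replicate 1, 12 members were called higher, when 24.1% of all genes were called. Same-numbered libraries of the first set deviate together, mostly as replicate 3 against replicates 1 and 2, and with the replicate number as a block 25 members were called higher and 14 lower, among 56.6% of all genes. Replicates 1 and 2 alone, a possible batch by the style of their table names, gave 26 higher and 12 lower, with 53.1% of all genes called. Calls gained under the block were those of Ephb3, Ephb6, Ntn3, Sema3f, Sema4f and Sema6a, higher with adjusted p from 0.01 to 0.029, and of Robo1, Sema4a, Sema4b and Sema4d, lower with adjusted p from 0.0014 to 0.04. DESeq2 did not call Ntn5, Plxnb1 and Sema5a in the libraries labelled QKO (adjusted p 0.079, 0.059 and 0.092), which edgeR called. With a spread shared by all 12 libraries, these and Plxnc1 and Sema6b lost their calls (0.084 to 0.22).

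Among the promoters of these genes, 5 are shown because their genes hold the sharpest contrasts described below: Nrp2 has the deepest fall in I53A, Epha4 rose in both comparisons and by unequal amounts, Plxna2 and Efna3 were called in opposite directions, and Slit2 fell in I53A with little difference under the QKO label. Each is the 250 bases before the annotated start, 5′ to 3′ on the gene's own strand, with CG dinucleotides, the sites of vertebrate DNA methylation, in capitals. The sequences are those of RefSeq on GRCm38.p6, at chr1:62703067-62703316 (plus strand), chr1:77515089-77515338 (minus), chr1:194619579-194619828 (plus), chr3:89322940-89323189 (minus) and chr5:47982905-47983154 (plus), while gene coordinates elsewhere are those of the count files, on mm9.
Nrp2: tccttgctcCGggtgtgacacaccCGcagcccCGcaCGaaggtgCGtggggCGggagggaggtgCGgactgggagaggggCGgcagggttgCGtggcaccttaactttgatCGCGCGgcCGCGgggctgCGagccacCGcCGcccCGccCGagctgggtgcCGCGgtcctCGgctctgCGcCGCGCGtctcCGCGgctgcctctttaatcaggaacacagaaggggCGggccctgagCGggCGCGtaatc
Epha4: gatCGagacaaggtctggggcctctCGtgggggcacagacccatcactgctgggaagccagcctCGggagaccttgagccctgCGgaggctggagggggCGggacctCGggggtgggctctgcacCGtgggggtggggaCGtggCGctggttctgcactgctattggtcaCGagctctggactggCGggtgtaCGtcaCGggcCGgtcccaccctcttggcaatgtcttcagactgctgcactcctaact
Plxna2: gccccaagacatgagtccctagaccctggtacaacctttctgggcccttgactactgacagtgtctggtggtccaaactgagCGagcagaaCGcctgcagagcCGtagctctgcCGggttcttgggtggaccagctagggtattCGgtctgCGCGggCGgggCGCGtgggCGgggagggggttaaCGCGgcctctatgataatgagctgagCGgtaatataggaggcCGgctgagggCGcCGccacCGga
Efna3: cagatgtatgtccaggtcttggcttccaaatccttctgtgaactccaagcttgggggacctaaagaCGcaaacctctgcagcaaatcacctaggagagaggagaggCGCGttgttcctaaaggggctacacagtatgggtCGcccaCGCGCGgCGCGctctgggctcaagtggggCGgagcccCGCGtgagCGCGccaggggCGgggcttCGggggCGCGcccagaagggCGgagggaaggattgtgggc
Slit2: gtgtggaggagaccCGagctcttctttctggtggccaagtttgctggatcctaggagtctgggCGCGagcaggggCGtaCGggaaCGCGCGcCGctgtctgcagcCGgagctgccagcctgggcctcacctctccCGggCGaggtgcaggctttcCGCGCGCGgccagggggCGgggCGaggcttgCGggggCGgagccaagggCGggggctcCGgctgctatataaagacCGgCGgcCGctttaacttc
The windows hold 32, 14, 18, 19 and 25 CG dinucleotides, in that order. Of the 64 members 56 had a promoter in the table, with a median of 16 CG dinucleotides per window against 6 over the 27025 windows of all genes, and 57.1% of members against 27.5% of all genes had at least 15. Members called lower had more of them than members called higher, with medians of 22 and 13 in I53A and of 19 and 14 under the QKO label. The motif AGATAA, searched on both strands (the reverse being TTATCT), which GATA factors bind, stood in 3.57% of the members' windows and 10.3% of all windows. These are counts of letters, and no test was made on them.

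Of the semaphorins, the largest ligand family, 3 rose and 2 fell of 18 tested in I53A. Those of the second set gave 8 rises and 6 falls of 18 under the QKO label. Over all genes 18.1% rose and 17.4% fell in I53A, and 28.7% rose and 29% fell under the label. Sema4c, a membrane-bound ligand of plexin-B2 (chromosome 1, 36605487 to 36615194), rose in I53A and fell under the QKO label. Its values were 5.05, 5.63 and 5.27 CPM in wild type replicates 1 to 3 and 15.8, 13.5 and 15.1 CPM in I53A (log2 fold change, log2FC, 1.47 ± 0.14, SE; adjusted p = 0.00013). In the second set they were 11.9, 11.01 and 8.11 CPM in wild type and 7.98, 7.51 and 6.36 CPM in the libraries labelled QKO (log2FC -0.50 ± 0.13, adjusted p = 0.0013). The groups do not overlap in either set, though they nearly touch in the second. I53A is high and the libraries labelled QKO are low. The wild type level itself was higher in the second set by more than the spread (log2 difference 1.12, adjusted p = 2.2e-05).

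Sema7a, which is anchored to the membrane by a lipid and binds plexin-C1 and integrins (chromosome 9, 57787920 to 57810671), rose in both. It had 3.76, 2.68 and 3.36 CPM in wild type and 9.58, 8.15 and 9.31 CPM in I53A (log2FC 1.46 ± 0.18, adjusted p = 6e-04), and 2.78, 3.25 and 3.71 CPM and 6.70, 7.02 and 7.53 CPM in the second set (log2FC 1.11 ± 0.16, adjusted p = 5.9e-08). Every mutant library is above every wild type library of its set. Sema3d, a secreted class 3 semaphorin, also rose in both, from 0.186 ± 0.196 to 0.921 ± 0.0672 CPM in I53A (log2FC 2.16 ± 0.65, adjusted p = 0.033). Under the QKO label Sema3d had 0.768, 0.807 and 1.22 CPM against 0.116, 0.0551 and 0.0463 CPM in wild type (log2FC 3.62 ± 0.61, adjusted p = 1.3e-06). The I53A call of Sema3d was lost without I53A replicate 1, 2 or 3 or wild type replicate 1 (adjusted p 0.052 to 0.12), and without wild type replicate 2 its log2 fold change was 3.17. Sema5b, a transmembrane class 5 semaphorin, fell in both. Wild type had 25.5, 23.9 and 28.9 CPM and I53A 14.6, 14.0 and 16.6 CPM (log2FC -0.79 ± 0.12, adjusted p = 0.0015). Sema5b then had 46.5, 42.7 and 44.1 CPM in wild type of the second set and 29.2, 28.3 and 26.3 CPM under the QKO label (log2FC -0.67 ± 0.07, adjusted p = 2.7e-12). Neither pair of groups overlaps. Sema3b fell in I53A alone (log2FC -0.88 ± 0.23, adjusted p = 0.02), a call lost without I53A replicate 2 (0.074) or wild type replicate 1 (0.059).

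Under the QKO label 4 of 6 secreted class 3 semaphorins rose and 1 fell, while of 6 membrane-bound class 4 genes none rose and 3 fell. Over all genes 28.7% rose and 29% fell. The classes also differ in level. In wild type the class 3 genes that rose had means of at most 1.82 CPM, and the class 4 genes that fell at least 10.4 CPM. The part of level in this contrast was not tested. Of the class 3 rises, Sema3d and Sema3g had passed the filter on low counts only through the libraries labelled QKO. Sema3c had 0.870, 0.606 and 0.787 CPM in wild type and 1.58, 2.05 and 1.96 CPM under the label (log2FC 1.29 ± 0.32, adjusted p = 0.00055). Sema3e, which binds plexin-D1 without a neuropilin, rose from 1.82 ± 0.376 to 3.18 ± 0.143 CPM (log2FC 0.82 ± 0.23, adjusted p = 0.002). Sema3g had 0.464, 0.496 and 0.926 CPM in wild type and 1.24, 1.55 and 1.22 CPM under the label (log2FC 1.03 ± 0.36, adjusted p = 0.013). Its groups do not overlap, but the call was lost without wild type replicate 1 or 2 or QKO replicate 2 (adjusted p 0.053 to 0.067). The fall was that of Sema3f, the ligand that prefers neuropilin-2 and the most abundant class 3 gene per length in wild type. It had 8.12, 7.98 and 8.99 CPM in wild type and 4.70, 4.41 and 5.71 CPM under the label, with no overlap (log2FC -0.76 ± 0.14, adjusted p = 8.6e-06), and 7.74 ± 1.499 and 10.6 ± 2.10 CPM in the first set, where it was not called (log2FC 0.46 ± 0.20, adjusted p = 0.11; 0.01 with the block).

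The class 4 genes that fell under the QKO label were Sema4b (log2FC -0.33 ± 0.06, adjusted p = 2.8e-06), Sema4c and Sema4g (log2FC -0.42 ± 0.09, adjusted p = 8.2e-05). For Sema4b, the most abundant ligand per length, the values were 57.8, 61.6 and 64.8 CPM in wild type and 50.0, 47.8 and 48.9 CPM under the label, and the groups do not overlap. In I53A it had 93.2 ± 14.9 CPM in wild type and 80.0 ± 10.5 CPM (log2FC -0.22 ± 0.13, adjusted p = 0.24; 0.0014 with the block). Of the class 6 semaphorins, ligands of plexin-A receptors, Sema6c, the most abundant per length, fell from 32.9, 31.3 and 32.8 CPM to 21.4, 19.2 and 19.2 CPM (log2FC -0.69 ± 0.08, adjusted p = 3.8e-11). Sema6a rose from 0.464, 0.110 and 0.324 CPM to 1.28, 0.993 and 1.26 CPM (log2FC 1.97 ± 0.44, adjusted p = 0.00012), again with no overlap. Sema6b (log2FC 0.66 ± 0.24, adjusted p = 0.015) and Sema5a (log2FC 0.74 ± 0.31, adjusted p = 0.037) rose with groups that overlap. Sema6b lost its call without wild type replicate 1 or 3 or QKO replicate 3 (0.06 to 0.089) and its log2 fold change was 1.01 without wild type replicate 2. Sema5a lost its call without wild type replicate 2 or 3 or QKO replicate 1 or 3 (0.1 to 0.19), and its log2 fold change was 1.14 without wild type replicate 1.

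The neuropilins, co-receptors of class 3 semaphorins and of vascular endothelial growth factor, moved in opposite directions in both comparisons. Nrp2 (chromosome 1, 62749859 to 62865269) had the deepest fall of all members in I53A. Its values were 63.6, 70.3 and 69.2 CPM in wild type and 7.14, 6.24 and 4.34 CPM in I53A (log2FC -3.50 ± 0.16, adjusted p = 5.2e-06). Second-set values of Nrp2 were 19.4, 21.5 and 25.5 CPM in wild type and 11.9, 10.2 and 10.1 CPM under the QKO label (log2FC -1.04 ± 0.10, adjusted p = 1.1e-12). All mutant libraries are below all wild type libraries of their set, and the wild type of the second set was itself lower than that of the first (log2 difference -1.44, adjusted p = 2.2e-07). The I53A effect was the stronger one (difference of effects -2.43 ± 0.20, adjusted p = 4.6e-07).

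Nrp1 (chromosome 8, 130882973 to 131029362) was low in wild type and rose in both. It had 0.224, 0.669 and 0.764 CPM in wild type and 3.82, 3.54 and 1.66 CPM in I53A (log2FC 2.48 ± 0.48, adjusted p = 0.0051), and 0.522, 1.16 and 0.324 CPM and 1.71, 2.73 and 2.10 CPM in the second set (log2FC 1.71 ± 0.35, adjusted p = 3.6e-05; log2 fold change 2.35 without wild type replicate 2). I53A replicate 3 is the lowest of its group yet above all wild type libraries. Per length, Nrp2 made up 98.3 to 99.4% of the summed neuropilin level in wild type of the first set and 52.3 to 61.9% in I53A. In the second set its share was 92.0 to 98.0% in wild type and 70.0 to 81.2% under the QKO label. The summed neuropilin level was 6.79 ± 0.395 CPM per kilobase in wild type and 1.08 ± 0.336 in I53A, and 2.58 ± 0.327 and 1.58 ± 0.0752 in the second set. These sums do not overlap between groups.

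**Figure D3:**
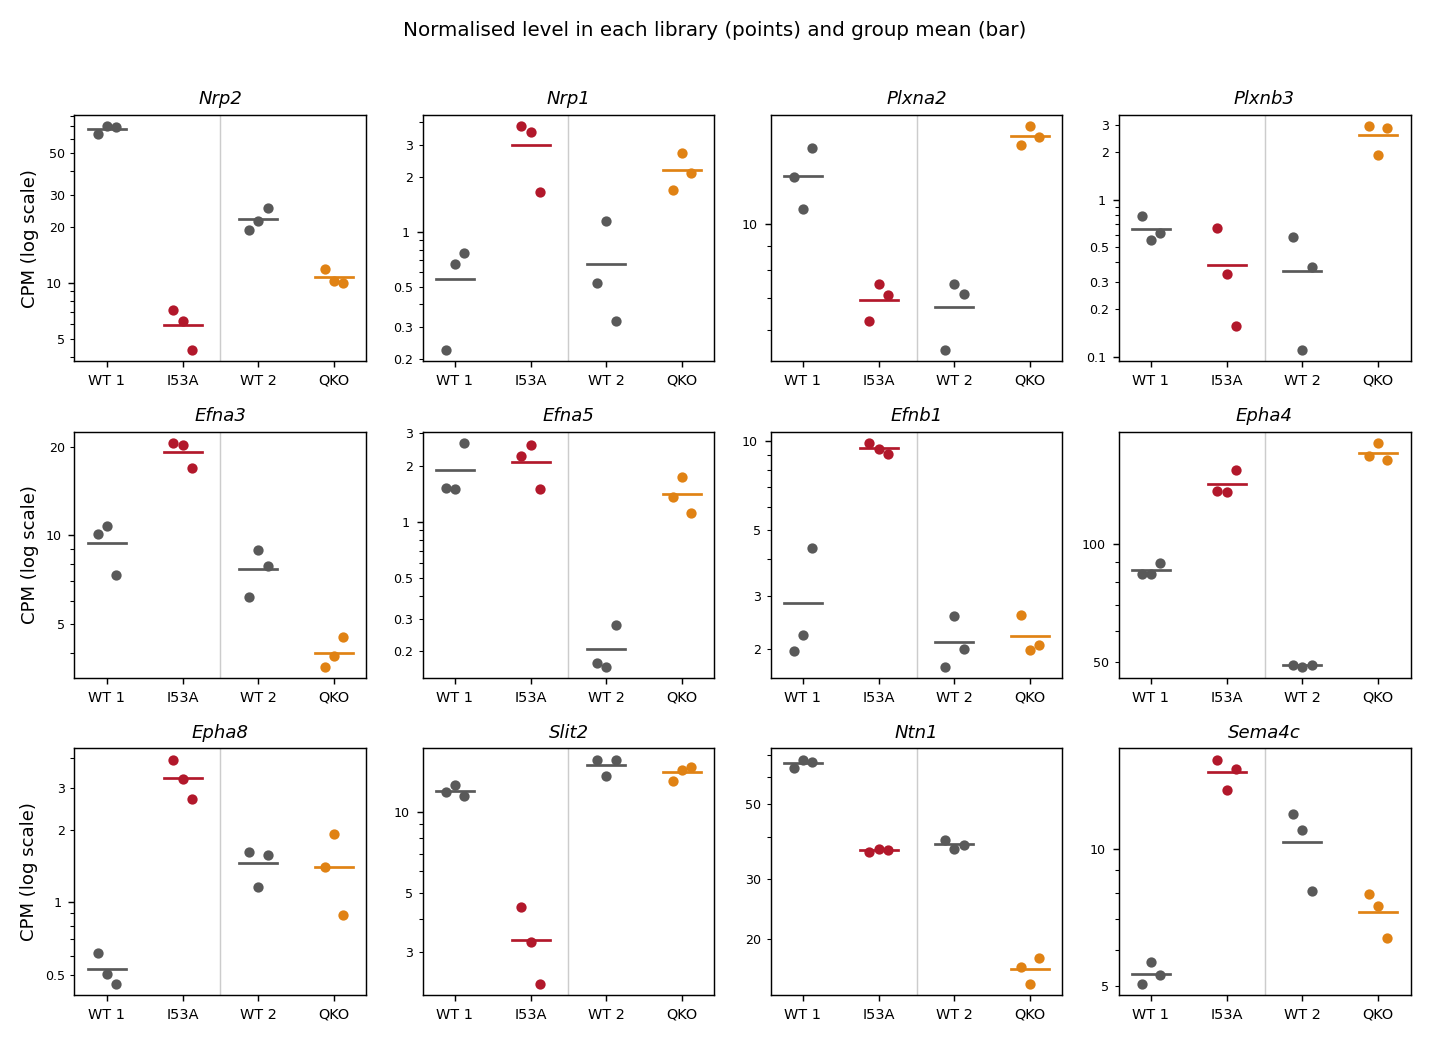
CPM in each library (points) with the group mean (bar), on a log axis per gene, for 12 members that were called in at least 1 comparison. WT 1 and WT 2 are the wild type libraries of the first and second sets, and QKO marks libraries by their label. Plxna2 and Efna3 show opposite directions in the 2 sets, while Nrp2 and Ntn1 are lower and Epha4 higher than wild type in both.

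Plexins, the signalling receptors of semaphorins, were split evenly: of 9 tested, 3 rose and 3 fell in each comparison. The shares over all genes were 18.1% higher and 17.4% lower in I53A, and 28.7% and 29% under the QKO label. Plxna2, a receptor of class 3 and class 6 semaphorins (chromosome 1, 196446023 to 196643063), was the 1 member called lower in I53A and higher under the QKO label. Its values were 12.5, 10.8 and 14.4 CPM in wild type and 6.26, 7.48 and 7.10 CPM in I53A (log2FC -0.85 ± 0.16, adjusted p = 0.004). In the second set they were 5.45, 7.49 and 7.13 CPM in wild type and 14.6, 16.0 and 15.2 CPM under the label (log2FC 1.18 ± 0.12, adjusted p = 1.5e-12). The groups do not overlap in either set, and the effects differ (difference of effects -2.01 ± 0.20, adjusted p = 2.9e-06). Plxnb2, the receptor of Sema4c and the third most abundant member per length in the first set, went the other way. It rose from 135, 129 and 143 CPM to 171, 160.2 and 168 CPM in I53A (log2FC 0.30 ± 0.07, adjusted p = 0.013). Plxnb2 fell from 129, 139 and 149 CPM to 106, 112 and 102 CPM under the label (log2FC -0.38 ± 0.05, adjusted p = 3.3e-09). Ligand and receptor thus had the same signs in both sets. The rise was lost without I53A replicate 1 or wild type replicate 1 or 2 (adjusted p 0.057 to 0.063).

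Plxnb3, a receptor of Sema5a (chromosome X, 71002429 to 71017853), had the largest log2FC among the receptors tested under the QKO label, though it passed the filter only through those libraries. It had 0.580, 0.110 and 0.371 CPM in wild type and 2.95, 1.92 and 2.85 CPM under the label (log2FC 2.87 ± 0.36, adjusted p = 1.7e-09), and 0.785, 0.558 and 0.611 and 0.664, 0.337 and 0.158 CPM in the first set, where the groups overlap (log2FC -0.68 ± 0.53, adjusted p = 0.35). Plxnd1, best known from blood vessels (chromosome 6, 115904829 to 115945023), rose in I53A, with 2.30, 2.62 and 1.83 CPM in wild type and 8.75, 5.51 and 6.39 CPM in I53A (log2FC 1.6 ± 0.24, adjusted p = 0.0015). Second-set groups of Plxnd1 overlap (log2FC 0.10 ± 0.20, adjusted p = 0.71). Plxna3 and Plxnb1 fell in both comparisons. For Plxna3 the log2 fold changes were -0.86 ± 0.13 in I53A and -0.36 ± 0.08 under the QKO label (adjusted p = 0.0014 and 9.9e-05), and for Plxnb1 they were -0.40 ± 0.10 and -0.17 ± 0.06 (adjusted p = 0.015 and 0.021). The calls of Plxnb1 were lost without wild type replicate 1 in the first set (0.058) and without wild type replicate 3 (0.068) or QKO replicate 2 (0.18, log2 fold change -0.11) in the second. Plxna1 rose in I53A (log2FC 0.29 ± 0.09, adjusted p = 0.045) with groups that overlap, and lost its call without I53A replicate 1 or 3 or wild type replicate 1 or 2 (0.088 to 0.16). Plxnc1 rose under the QKO label (log2FC 0.65 ± 0.23, adjusted p = 0.013), a call lost without wild type replicate 2 or QKO replicate 3 (0.071).

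In I53A 5 of 8 ephrins rose and none fell, while under the QKO label 2 rose and 5 fell. Of all genes, 18.1% rose and 17.4% fell in I53A, and 28.7% rose and 29% fell under the label. All 3 ephrin-B genes, whose products cross the membrane and can signal into their own cell, rose in I53A. Efnb1 (chromosome X, 96331469 to 96344330) had 1.96, 2.23 and 4.35 CPM in wild type and 9.85, 9.39 and 9.07 CPM in I53A (log2FC 1.76 ± 0.28, adjusted p = 0.002). Wild type replicate 3 is the highest of its group and still under every I53A library, and in the second set the groups overlap (log2FC 0.09 ± 0.24, adjusted p = 0.79). Efnb2, known from arteries (chromosome 8, 8617434 to 8661239), had 11.2, 10.5 and 9.70 CPM in wild type and 21.9, 20.6 and 22.2 CPM in I53A (log2FC 1.04 ± 0.11, adjusted p = 0.00029). In the second set its values were 2.38, 2.70 and 2.08 CPM and 4.35, 3.54 and 3.93 CPM (log2FC 0.74 ± 0.20, adjusted p = 0.0015). The groups are apart in both sets, but the wild type level of Efnb2 was lower in the second set (log2 difference -1.97, adjusted p = 1.6e-08).

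Efnb3 (chromosome 11, 69367594 to 69373707) had 6.12, 5.63 and 5.96 CPM in wild type and 9.13, 8.54 and 7.26 CPM in I53A (log2FC 0.50 ± 0.15, adjusted p = 0.034), and 10.1, 10.2 and 12 CPM and 5.98, 4.78 and 4.68 CPM in the second set (log2FC -1.06 ± 0.13, adjusted p = 1.5e-09). The groups do not overlap, but the small rise in I53A was lost without any single library other than I53A replicate 3 (adjusted p 0.055 to 0.13) and without the filter on low counts (0.069). The fall in the second set kept its call in every alternative tried.

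The ephrin-A genes, whose products are anchored by a lipid, include 3 neighbours on the minus strand of chromosome 3: Efna1, Efna3 and Efna4, with 32.8 and 10.4 kb between them. All of them fell under the QKO label, and Efna3 and Efna4 rose in I53A. Efna3 (chromosome 3, 89117821 to 89126887) had 10.1, 10.8 and 7.33 CPM in wild type and 20.6, 20.2 and 16.9 CPM in I53A (log2FC 1.03 ± 0.17, adjusted p = 0.0021). Efna3 had 6.20, 8.92 and 7.87 CPM in wild type of the second set and 3.59, 3.91 and 4.54 CPM under the label (log2FC -0.94 ± 0.16, adjusted p = 1.1e-06). The groups are apart in both sets, high in I53A and low under the label. Efna4 rose from 15.0, 15.3 and 16.8 CPM to 22.9, 20.2 and 22.4 CPM in I53A (log2FC 0.48 ± 0.11, adjusted p = 0.0097). It fell from 11.8, 11.8 and 11.2 CPM to 7.38, 7.02 and 8.75 CPM under the label (log2FC -0.58 ± 0.12, adjusted p = 3.9e-05), and neither pair of groups overlaps. Efna1 had 5.54 ± 0.654 and 5.80 ± 0.745 CPM in the first set (log2FC 0.06 ± 0.18, adjusted p = 0.82) and fell from 3.98 ± 0.529 to 2.06 ± 0.357 CPM in the second (log2FC -0.97 ± 0.21, adjusted p = 9.9e-05). Of the exon bases of Efna3, 14.1% overlap Gm15998, and of those of Efna4, 10.5% overlap 4731419I09Rik. Without strand in the counting, reads of such overlaps cannot be told apart or are lost.

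The other ephrin-A genes lie elsewhere. Efna2 on chromosome 10 fell under the label (log2FC -0.59 ± 0.14, adjusted p = 0.00038). Efna5 (chromosome 17, 62953533 to 63230666) was the 1 ephrin-A gene that rose there, with 0.174, 0.165 and 0.278 CPM in wild type and 1.37, 1.74 and 1.12 CPM under the label (log2FC 2.69 ± 0.45, adjusted p = 9e-07). In the first set it had 1.51, 1.51 and 2.67 CPM in wild type and 2.27, 2.59 and 1.499 CPM in I53A (log2FC 0.19 ± 0.34, adjusted p = 0.69). The wild type of the second set was below that of the first (log2 difference -2.95, adjusted p = 2.9e-05). Summed per length over the 5 genes, the ephrin-A level was 21.0 ± 0.133 CPM per kilobase in wild type and 28.8 ± 1.28 in I53A, and 17.3 ± 0.873 and 11.02 ± 0.658 in the second set.

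Among the Eph receptors, which are tyrosine kinases except for a few members without kinase activity, Epha4 was called higher in both comparisons. Epha4 binds ephrins of both classes (chromosome 1, 77363760 to 77511663). It had 83.7, 84.1 and 89.6 CPM in wild type and 137, 136 and 155 CPM in I53A (log2FC 0.73 ± 0.08, adjusted p = 0.00028). Under the QKO label it had 169, 182 and 164 CPM, against 49.1, 48.5 and 49.0 CPM in wild type (log2FC 1.81 ± 0.05, adjusted p = 3.7e-35). The mutant libraries are above wild type in both sets, with the larger effect under the QKO label (difference of effects -1.06 ± 0.09, adjusted p = 4.7e-07). Epha2, the most abundant member per length, had 134, 132 and 152 CPM in wild type and 169.9, 168 and 179 CPM in I53A (log2FC 0.30 ± 0.08, adjusted p = 0.016), and 146, 151 and 155 CPM and 125, 123 and 135 CPM in the second set (log2FC -0.24 ± 0.05, adjusted p = 1.1e-05). Its groups do not overlap and its directions are opposite. The rise in I53A was lost without I53A replicate 1 or wild type replicate 1 or 2 (adjusted p 0.055 to 0.078). The summed EphA level was 43.8 ± 2.16 CPM per kilobase in wild type and 64.2 ± 1.13 in I53A, and 45.3 ± 0.887 and 60.1 ± 0.897 in the second set. The sums of mutant and wild type libraries do not overlap. In the second set the sum rose through Epha4, from 8.16 ± 0.0493 to 28.6 ± 1.53 CPM per kilobase, while Epha2 fell from 34.1 ± 1.03 to 28.8 ± 1.44. By call, 4 of 6 tested EphA genes rose and none fell in I53A (18.1% and 17.4% of all genes). Of these rises, that of Epha8 had passed the filter on low counts only through the I53A libraries. Under the QKO label 1 of 6 rose and 1 fell (28.7% and 29% of all genes).

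Epha8 and Epha1 rose in I53A alone by call. Epha8, a receptor of ephrin-A ligands (chromosome 4, 136485334 to 136512731), had 0.617, 0.502 and 0.458 CPM in wild type and 3.93, 3.26 and 2.68 CPM in I53A (log2FC 2.62 ± 0.30, adjusted p = 0.00039). Its groups in the second set overlap, at 1.62, 1.16 and 1.57 CPM and 1.41, 1.92 and 0.889 CPM (log2FC -0.08 ± 0.31, adjusted p = 0.85). Wild type itself was higher in the second set (log2 difference 1.61, adjusted p = 0.0013). Epha8 lies 93.4 kb from Ephb2 on the same chromosome. Epha1 (chromosome 6, 42308486 to 42323267) had 8.19, 9.65 and 7.71 CPM in wild type and 26.5, 23.8 and 18.1 CPM in I53A (log2FC 1.42 ± 0.17, adjusted p = 0.00049), and its second-set groups do not overlap though the test missed the threshold (log2FC -0.33 ± 0.17, adjusted p = 0.09). The difference of effects passed for both, with 2.71 ± 0.46, adjusted p = 0.00032 for Epha8 and 1.77 ± 0.23, adjusted p = 3.5e-05 for Epha1. Of the exon bases of Epha1, 4.89% overlap Zyx.

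The EphB receptors, which bind ephrin-B ligands, all fell under the QKO label where tested (4 of 4, against 29% of all genes). These falls were 0.29 to 0.78 on the log2 scale. The largest fall was that of Ephb6, a receptor without kinase activity, from 2.98 ± 0.206 to 1.73 ± 0.213 CPM (log2FC -0.78 ± 0.23, adjusted p = 0.0037), and the others were Ephb2 (log2FC -0.35 ± 0.08, adjusted p = 2e-04), Ephb3 (log2FC -0.29 ± 0.07, adjusted p = 0.00037) and Ephb4. Ephb4, the partner of ephrin-B2 in veins, fell in both comparisons. Its values were 43.0, 43.3 and 51.6 CPM in wild type and 31.5, 31.0 and 33.5 CPM in I53A (log2FC -0.52 ± 0.10, adjusted p = 0.0049), and 47.3, 45.8 and 52.3 CPM and 33.2, 37.9 and 36.6 CPM in the second set (log2FC -0.44 ± 0.07, adjusted p = 1.2e-07), with no overlap. Ephb1 was the 1 EphB gene that rose in I53A, from 0.505, 0.781 and 0.229 CPM to 2.27, 1.35 and 1.34 CPM (log2FC 1.66 ± 0.46, adjusted p = 0.023), a call lost without I53A replicate 1 (0.11) or wild type replicate 1 (0.08). It had 3 counts in all wild type libraries of the second set and 31 under the label, a ratio of 9.67 (exact 95% interval 3.02 to 49.4, which covers counting error only, as do all such intervals here).

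Slits, secreted repellents, fell in I53A in 2 of 3 cases, where 17.4% of all genes fell. Slit2 (chromosome 5, 48374394 to 48697521) had 11.9, 12.6 and 11.5 CPM in wild type and 4.43, 3.26 and 2.29 CPM in I53A (log2FC -1.83 ± 0.22, adjusted p = 0.00052), and 15.6, 13.7 and 15.7 CPM and 13.1, 14.3 and 14.8 CPM in the second set (log2FC -0.10 ± 0.10, adjusted p = 0.42). Slit3 (chromosome 11, 34934726 to 35522009) had 7.69, 6.13 and 9.01 CPM in wild type and 3.71, 3.37 and 3.16 CPM in I53A (log2FC -1.15 ± 0.20, adjusted p = 0.0027), and 6.76 ± 1.23 and 6.44 ± 1.16 CPM in the second set (log2FC -0.10 ± 0.15, adjusted p = 0.6). Both are low in I53A without overlap and overlap in the second set. Slit1 rose under the label, with 0.696, 1.10 and 1.07 CPM in wild type and 2.60, 2.11 and 1.78 CPM under the label (log2FC 1.17 ± 0.29, adjusted p = 6e-04), and 1.28 ± 0.0961 and 1.10 ± 0.480 CPM in the first set (log2FC -0.20 ± 0.38, adjusted p = 0.73). The effects of all 3 Slits differ between the comparisons, I53A being the lower, by -1.71 ± 0.22, adjusted p = 3.5e-05 for Slit2, -1.04 ± 0.27, adjusted p = 0.0075 for Slit3 and -1.34 ± 0.47, adjusted p = 0.039 for Slit1. The difference for Slit1 was lost without any of 8 single libraries (adjusted p 0.05 to 0.096) and without the filter on low counts (0.057). It kept its call without I53A replicate 2, QKO replicate 3, or wild type replicate 3 of the first set or 2 of the second.

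Of the Robo receptors, Robo2 and Robo4 rose in I53A (2 of 4 tested, against 18.1% of all genes). Robo1 and Robo3 rose under the QKO label (2 of 3 tested, against 28.7% of all genes). Robo4, the family member of blood vessels (chromosome 9, 37209482 to 37221608), had 6.51, 7.53 and 7.48 CPM in wild type and 21.5, 17.7 and 25.9 CPM in I53A (log2FC 1.59 ± 0.17, adjusted p = 0.00024), and 7.62 ± 0.621 and 8.30 ± 0.689 CPM in the second set (log2FC 0.13 ± 0.13, adjusted p = 0.42). Robo3, a divergent receptor of commissural axons, lies 1.65 kb away on the other strand. It rose from 1.12 ± 0.321 to 2.23 ± 0.117 CPM under the label (log2FC 0.96 ± 0.28, adjusted p = 0.0028) and had 1.43 ± 0.453 and 2.03 ± 0.619 CPM in the first set (log2FC 0.51 ± 0.35, adjusted p = 0.29). Robo1, the most abundant Robo gene, had 65.4, 64.3 and 70.1 CPM in wild type and 86.9, 84.9 and 89.1 CPM under the label (log2FC 0.38 ± 0.05, adjusted p = 8.2e-09), and 82.4 ± 6.27 and 72.2 ± 5.64 CPM in the first set (log2FC -0.19 ± 0.09, adjusted p = 0.14; 0.04 with the block). Robo2 rose in I53A from 0.132 ± 0.119 to 0.698 ± 0.156 CPM (log2FC 2.40 ± 0.72, adjusted p = 0.032), but the call was lost without any library other than wild type replicate 3 (0.07 to 0.092), and its log2 fold change was 1.78 without wild type replicate 1. Of 10 endothelial markers, 6 could be tested in I53A, of which 3 rose and 2 fell (18.1% and 17.4% of all genes). The sum of all 10 was 136 to 158 CPM in wild type and 109 to 117 CPM in I53A. In the second set 7 could be tested, of which 1 rose and 1 fell (28.7% and 29% of all genes). The sums there were 82.7 to 90.1 CPM and 133 to 139.9 CPM. Most of these sums is Pecam1, which fell from 124 ± 12.4 to 77.4 ± 4.78 CPM in I53A and rose from 71.4 ± 4.06 to 121 ± 3.86 CPM under the label. In I53A Cdh5 rose from 0.125 ± 0.114 to 4.79 ± 0.876 CPM and Tek fell from 21.2 ± 3.37 to 8.39 ± 1.47 CPM. Cdh5 had passed the filter on low counts only through the I53A libraries. Emcn was at 0 in all groups but I53A, which had 1 count over its libraries. The part of these markers in the values of Robo4, Plxnd1 and Efnb2 was not tested.

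Ntn1, the secreted attractant netrin-1 (chromosome 11, 68022866 to 68214325), fell in both comparisons. It had 63.8, 67.7 and 66.5 CPM in wild type and 36.0, 36.8 and 36.5 CPM in I53A (log2FC -0.86 ± 0.08, adjusted p = 1e-04). Under the QKO label it had 16.5, 14.7 and 17.5 CPM, against 39.2, 36.8 and 37.9 CPM in wild type (log2FC -1.22 ± 0.08, adjusted p = 1.9e-19). The groups are far apart relative to their spread, and the fall was deeper under the QKO label (difference of effects 0.39 ± 0.10, adjusted p = 0.0098). Ntn5 rose under the label (log2FC 0.86 ± 0.36, adjusted p = 0.035), but 25.9% of its exon bases overlap Sec1, and the call was lost without wild type replicate 1 or 2 or any of the libraries labelled QKO (0.063 to 0.18) and with DESeq2 (0.079). Of the netrin receptors, whose symbols the rule does not take, Dcc, which attracts axons to netrin-1, rose in I53A from 1.01 ± 0.330 to 5.15 ± 0.0695 CPM (log2FC 2.31 ± 0.26, adjusted p = 0.00038). The repulsive receptor gene Unc5b rose there from 34.7 ± 2.15 to 69.9 ± 4.80 CPM (log2FC 1.01 ± 0.09, adjusted p = 0.00011), and Unc5a rose under the label from 2.23 ± 0.409 to 3.98 ± 0.649 CPM (log2FC 0.83 ± 0.21, adjusted p = 0.00059). Neo1, a receptor of netrins and of repulsive guidance molecules, fell in I53A from 96.6 ± 4.10 to 82.3 ± 1.09 CPM (log2FC -0.23 ± 0.07, adjusted p = 0.031). In all, 3 of 6 tested netrin receptor genes rose and 1 fell in I53A (18.1% and 17.4% of all genes). Under the label 2 of 5 rose and none fell (28.7% and 29% of all genes). The other of these rises was that of Unc5d from 0.0193 ± 0.0335 to 0.634 ± 0.0716 CPM (adjusted p = 4.8e-06), named after its values were seen. With 1 count over wild type and 39 under the label, Unc5d had passed the filter on low counts only through the libraries labelled QKO. Unc5d was also among the I53A rises, where it had passed only through the I53A libraries.

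Members with too few counts to be tested were Epha3, Epha5, Epha6, Ntn4, Ntn5, Sema3a and Sema6d in I53A, and Epha3, Epha5, Epha6, Ephb1, Ntn4, Robo2, Sema3a and Sema6d under the QKO label. Sema6d had 2 counts over the wild type libraries of the first set and 47 over I53A, a ratio of 23.7 (interval 6.19 to 201). Epha6 had 1 and 17 counts in the second set, a ratio of 15.9 (2.49 to 665), and Robo2 had 3 and 12, a ratio of 3.74 (1.01 to 20.7). Epha3 had 0 and 7 counts in both sets, at least 2.35-fold higher in I53A and at least 2.18-fold higher under the label taking 3 counts per group of 3 libraries as the floor. A fall in genes this low in wild type was not detectable at this depth.

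Of members with a mean over 10 CPM in the 6 libraries of a set, 10 of 25 rose and 6 fell in I53A, where 15.9% of all genes at such levels rose and 21.3% fell. Under the QKO label 3 of 20 rose and 13 fell, against 27.6% and 37.3%. From 2 to 10 CPM, 4 of 17 members rose and 4 fell in I53A, against 22.2% and 13.9% of all genes at such levels. There 5 of 22 rose and 8 fell under the QKO label, against 30.1% and 24%. Members under 2 CPM are not counted in this way, since several of those called had passed the filter on low counts only through the mutant libraries.

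Set side by side, 55 members were tested in both comparisons, which share no library. Those called higher in both were Efnb2, Epha4, Nrp1, Sema3d and Sema7a (5 members, with 7.55% of all genes in this class). Of these, Nrp1 and Sema3d had passed the filter on low counts only through the mutant libraries in both comparisons, which partly fixes this count. Those called lower in both were Ephb4, Nrp2, Ntn1, Plxna3, Plxnb1 and Sema5b (6 members, against 7.8%). Higher in I53A and lower under the QKO label were Efna3, Efna4, Efnb3, Epha2, Plxnb2 and Sema4c (6 members, against 3.43%), and Plxna2 alone had the reverse pattern (against 4.28%). A call in I53A alone was made for 9 members and under the QKO label alone for 21, and 7 had neither.

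**Figure D4:**
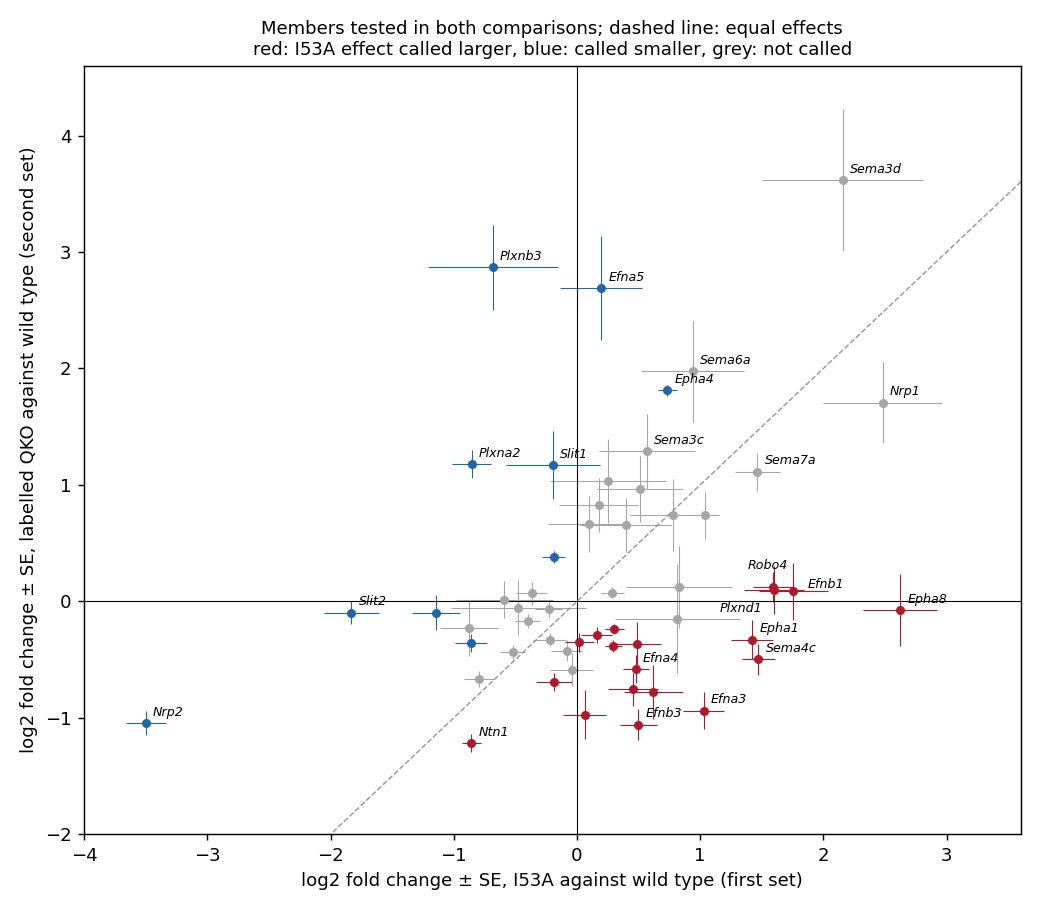
Log2 fold change of the 55 members tested in both comparisons, I53A against wild type on the horizontal axis and the libraries labelled QKO against wild type on the vertical axis, with standard errors (3 libraries per group). Red and blue mark members whose I53A log2 fold change, sign included, was called higher or lower than that under the QKO label. Nrp2, whose fall was deeper in I53A, is thus blue. Plxnb3, Efna5 and Plxna2 lie far above the dashed line of equal effects and Epha8 and Sema4c far below it.

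The test of the difference itself, over all 12 libraries, called 29 of 59 members (49.2%, against 36.1% of all genes), 19 with a larger and 10 with a smaller value in I53A (18% and 18.1% of all genes). The larger ones included 5 of 8 ephrins, 6 of 11 Eph receptors and 4 of 18 semaphorins, and the smaller ones all 3 Slits and 3 of 9 plexins. The widest gaps were those of Plxnb3 (-3.52 ± 0.70, adjusted p = 0.0012; -4.15 without I53A replicate 1) and Epha8, followed by Efna5 (-2.48 ± 0.54, adjusted p = 0.0023). All of these are low in wild type. Within the sets, Plxnb3 and Efna5 had passed the filter on low counts only through the libraries labelled QKO, and Epha8 only through the I53A libraries of its comparison. Plxnb3 had 20 counts and Efna5 12 over the wild type libraries of the second set. Among ephrins, Efna3 differed by 1.98 ± 0.24, adjusted p = 2e-05, and Efnb3 by 1.58 ± 0.20, adjusted p = 3.2e-05. Among members that moved alike, the difference was not called for Nrp1 (0.80 ± 0.69, adjusted p = 0.4), Sema7a (0.37 ± 0.23, adjusted p = 0.24) or Ephb4 (-0.07 ± 0.12, adjusted p = 0.72). Some of these calls were lost without a single library. That of Ephb2 was lost without any library (adjusted p 0.053 to 0.13) other than I53A replicate 2 or 3, wild type replicate 3 of the first set or QKO replicate 3. That of Ephb3 was lost without I53A replicate 1, wild type replicate 2 of the first set, wild type replicate 1 or 3 of the second, or any library labelled QKO (0.051 to 0.1). Plxna3 lost it without QKO replicate 1 (0.054) or wild type replicate 1 of the first set (0.07), and Sema4f without QKO replicate 1 or wild type replicate 2 of the second set (0.053 each). Sema6c lost it without QKO replicate 2 or 3 or wild type replicate 1 or 3 of the second set (0.05 to 0.064). With the block, Efna2 (0.025), Plxna1 (0.002) and Sema4g (0.023) were also larger, and Sema4a (0.012) smaller.

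The wild type groups of the sets also differed in these genes. Of 59 members tested, 12 were higher and 16 lower in the second set (47.5% called, against 57.4% of all genes, with 28% higher and 29.4% lower). The genotype effects are taken within each set, but library preparation, alignment and cell stock may differ between sets and cannot be told apart here. Besides the genes given above, Epha7, an Eph receptor of the nervous system, had a mean of 1.598 CPM in wild type of the first set and 6.58 CPM in that of the second, scaled over all 12 libraries (log2 difference 2.01, adjusted p = 2.3e-05) and was called in neither genotype comparison.

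Of the wider pathway, 52 genes of cytoplasmic proteins that act under these receptors were tested. Of these, 6 rose and 15 fell in I53A (40.4% called, against 35.5% of all genes), and 18 rose and 19 fell under the label (71.2%, against 57.7%). Mical2, an actin-oxidising enzyme of a family known from plexin signalling, rose in I53A from 1.66 ± 0.593 to 8.82 ± 1.505 CPM (log2FC 2.44 ± 0.27, adjusted p = 0.00035), and Srgap3, a Slit-Robo GTPase-activating protein, fell from 22.3 ± 1.80 to 8.49 ± 1.14 CPM (log2FC -1.40 ± 0.14, adjusted p = 0.00018). Crmp1, a mediator of semaphorin signals, rose under the label from 7.59 ± 0.749 to 25.8 ± 1.03 CPM (log2FC 1.76 ± 0.10, adjusted p = 9.1e-22), and Ablim1, an actin-binding protein, fell from 26.97 ± 1.96 to 13.1 ± 0.686 CPM (log2FC -1.03 ± 0.09, adjusted p = 8.3e-15). Of 5 other guidance cues tested in I53A 2 rose and none fell (18.1% and 17.4% of all genes). Among them Flrt3, a membrane protein that binds Unc5 and Robo receptors, rose from 4.38 ± 0.550 to 29.0 ± 2.91 CPM (log2FC 2.73 ± 0.14, adjusted p = 8.5e-06). Of 6 tested under the label 3 rose and none fell (28.7% and 29% of all genes). Among them Ntng2 rose from 0.414 ± 0.216 to 2.07 ± 0.334 CPM (log2FC 2.28 ± 0.37, adjusted p = 4.7e-07), but it passed the filter on low counts only through the libraries labelled QKO. Of the co-receptors and other semaphorin receptors, 4 of 6 rose and 1 fell in I53A (18.1% and 17.4% of all genes). Under the label 2 of 5 rose and 2 fell (28.7% and 29%). The I53A rises include Timd2, which passed the filter only through the I53A libraries. Timd2, a receptor of Sema4a, had 0 counts in wild type and 151 over the I53A libraries, and 0 in the second set, while Itgb1, the integrin subunit bound by Sema7a, fell in I53A from 255 ± 10.1 to 178 ± 10.9 CPM (log2FC -0.52 ± 0.07, adjusted p = 0.0011). Nrcam, an adhesion molecule that joins neuropilin-2, rose under the label from 0.729 ± 0.134 to 1.94 ± 0.316 CPM (log2FC 1.43 ± 0.32, adjusted p = 0.00014), and Cntn2 fell from 14.1 ± 0.818 to 10.1 ± 1.44 CPM (log2FC -0.47 ± 0.11, adjusted p = 0.00023). Of 7 neuron markers tested, 1 rose in I53A (18.1% of all genes) and 3 under the label (28.7%), and none fell (17.4% and 29%). The 9 measured summed to 311 to 314 CPM in wild type and 317 to 329 CPM in I53A, and to 389 to 411 and 530 to 550 CPM in the second set. Of the fibroblast markers, a list for feeder cells, 5 of 8 rose in I53A (18.1% of all genes). Under the label 4 of 7 rose and 1 fell (28.7% and 29% of all genes). Most of the sum is Fn1, with 1473 ± 41.1 and 1428 ± 83.5 CPM in the first set and 1838 ± 132 and 1461 ± 66.1 CPM in the second. Col1a2 rose from 0.314 ± 0.0807 to 4.82 ± 0.488 CPM in I53A and from 0.160 ± 0.148 to 4.69 ± 0.807 CPM under the label, and Bgn rose from 0.444 ± 0.0985 to 6.35 ± 1.24 CPM in I53A. In these comparisons both genes had passed the filter only through the mutant libraries. The list summed to 1444 to 1535 and 1400 to 1561 CPM, and to 1984 to 2235 and 1716 to 1862 CPM. Dcn was at 0 in every group but I53A (3 counts), and Lum in every group but the first wild type (1 count). The part of either list in the values of the members was not tested.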

How the data were processed

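Each RNA library has its own deposited count table, with raw counts per gene and the exon bases of each gene. Per the file headers, paired-end fragments were counted with featureCounts 1.6.3 on the GENCODE vM1 annotation of mm9, without a strand option. Per the file headers, the alignments were named with TopHat and as unique in the first set only. The submitters' processing notes also name HISAT2, which is not tied to a set. Libraries followed TRIzol extraction and the TruSeq procedure, per the labels' protocols.

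Counts were scaled by TMM, filtered with filterByExpr and tested over all genes with edgeR 4.0.16 (quasi-likelihood, robust, R 4.3.3, two-sided) with Benjamini-Hochberg adjustment and a threshold of 0.05. CPM is scaled within a set, and over 12 libraries for levels per kilobase, summed levels and wild types compared between sets. Errors are SD of CPM (n = 3) and SE of log2 fold changes. DESeq2 1.42.0 was an alternative. The scripts were tested on simulated data.

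Members and gene lists were chosen with earlier results of these data known. Named in full were members past 2-fold with separate groups and 1 CPM, the most abundant of each family and those called in opposite directions. Outside this rule, members were named after their values were seen, as were Unc5b and Unc5d. From the other pathway lists came the largest called rise and fall with at least 1 CPM in the higher group, and marker genes were named after their values were seen. Sox1, Map2 and Draxin were not analysed here. No libraries were duplicates, since counts of replicates differed beyond sampling noise (chi-square per degree of freedom 2.19 to 27.3). Deviations of same-numbered libraries correlate in the first set (r = 0.34, 0.40 and 0.62), as do wild type 1 with I53A 2 (0.30) and wild type 2 with I53A 1 (0.33), while pairs of replicate 3 with another number are negative (-0.43 to -0.50). Every same-numbered pair is over 0.1, so the fit with the replicate block is given where it changes a call. Replicate 3 of both groups there has tables named in another style, a possible batch that is also the shallowest.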

Additional observations from a re-analysis of the deposited data

How the results depend on the processing

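The counts of called members stayed within 1.5 times under DESeq2, RLE scaling, library totals, no or a stricter filter on low counts, a spread shared by all 12 libraries, the replicate block and replicates 1 and 2 alone, but not when 1 library was left out. The exception was the count higher in I53A, which ran from 12 (without I53A replicate 1) to 23. The other counts ran from 8 to 11 lower in I53A, 15 to 18 higher and 20 to 22 lower under the QKO label, and 16 to 22 larger and 8 to 11 smaller in the difference. With the replicate block 25 members were higher and 14 lower in I53A, and the counts under the QKO label were 19 and 21, as without it. Same-numbered libraries of the second set share only a number (r = 0.03, -0.01 and 0.08). Over all genes the block raised the calls in I53A from 5512 to 8798, and replicates 1 and 2 alone, the larger of the possible batches, gave 8340, with 26 members higher and 12 lower; replicate 3 alone has 1 library per group and gives no test. Of 98 calls of single members, 77 kept their side of the threshold in every alternative in which the member was tested, and none reversed. With the stricter filter Sema3d was not tested in either comparison, nor Robo2 in I53A, and these cases are not counted. Of 1445 recomputed values 93 missed the threshold, and their causes were not tested. Depth limits the members under 1 CPM, where a fall could not be seen.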
